A study of Mus musculus with 10 samples.

Results

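The 10 genes described here encode neuronal RNA-binding proteins of 4 families that direct alternative splicing: Rbfox1, Rbfox2 and Rbfox3, the neuronal Elavl genes Elavl2, Elavl3 and Elavl4, Nova1 and Nova2, and Celf4 and Celf5. They were chosen by name, with earlier results of these data known. All 10 were found among the 16338 genes of the RNA table, with a mean above the minimum of 10 normalized counts that was set for testing. In the table of chromatin peaks, 5 of the 10 were named by the authors for at least 1 peak, with 13 peaks of 6995 in all. The tissue was the cortical midline of C57/Bl6 mouse embryos at embryonic day 14.5. RNA was sequenced from 2 libraries of Rcor2f/f/EMX1-iCRE conditional knockout (cKO) embryos and from 2 control libraries of Rcor2f/f embryos, which carry the same floxed alleles and, as labelled, no Cre. Chromatin immunoprecipitation with sequencing (ChIP-seq) was made on wild-type midline, with 2 libraries of an antibody to Rcor2, 2 of a rabbit IgG mock antibody and 2 of input chromatin.

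Rcor2 is a scaffold of CoREST complexes, in which histone demethylase and deacetylase activity is joined to DNA-binding repressors such as Rest. Emx1 drives the Cre in progenitors of the dorsal telencephalon and so in their progeny, whereas interneurons born ventrally, vessels and meninges keep the gene. The labels do not say whether embryos were pooled or which exons were floxed, and p-values measure only the spread between these libraries. The deleted gene itself had 6363 and 6840 normalized counts in the cKO libraries and 7901 and 7257 in the control libraries (log2 change -0.20, SE 0.057, limma adjusted p 0.0541, against 0.0444 in the authors' deposited table), so the gene count gives only a weak check of the genotype labels. The libraries held between 27674987 and 30270598 recovered reads.

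As background, neurons splice many transcripts differently from the progenitors that give rise to them, and these proteins are among the factors that set the neuronal pattern. Rbfox proteins bind a short UGCAUG element beside exons, and Rbfox3 is the antigen known as NeuN. Neuronal Elavl proteins, also called Hu proteins, bind AU-rich and U-rich stretches and act on RNA stability and translation as well as on splicing. Nova proteins bind clusters of YCAY elements through KH domains and are known for controlling transcripts of inhibitory synapses and axon guidance. Celf proteins bind GU-rich elements, and Celf4 is known to bind the 3' ends of many neuronal transcripts and to limit seizures in mice. Counts per gene do not show splicing, so what follows concerns the amount of RNA from these genes and not their activity on target exons.

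Most of these splicing factors had less RNA in cKO midline. Of the 10 genes, 6 fell (Rbfox1, Rbfox2, Elavl3, Elavl4, Celf4 and Celf5), 4 did not pass the test and none rose, at an adjusted p under 0.05 in limma. Among all 14324 tested genes, 14.5% passed in either direction and 8.29% fell. The median log2 change of the 10 genes was -0.23, against -0.012 over all tested genes. In 9 of the 10 genes both cKO libraries lay below both control libraries, which held for 33.3% of all tested genes. At an unadjusted p under 0.05, 9 genes were lower and 1, Nova1, was higher, against 17.1% of all tested genes lower and 30.1% in either direction. By edgeR, by DESeq2 and in the authors' deposited table, 5 fell and 0 rose, where 6.47%, 5.77% and 6.73% of all genes fell. In bulk tissue, fewer cells of a type and less RNA per cell cannot be told apart, and set against pan-neuronal markers of the same libraries 1 of the 10 genes (Rbfox1) was lower and 5 were higher, as given below. The count rested on having both controls, while the log2 changes of the 6 genes kept their sign. Without control replicate 1, the changes of Rbfox1, Rbfox2, Elavl3, Elavl4, Celf4 and Celf5 were -0.785, -0.30, -0.29, -0.20, -0.38 and -0.33. Without control replicate 2 they were -0.75, -0.27, -0.31, -0.15, -0.39 and -0.40. With control replicate 1 left out only Rbfox1 passed, and likewise with control replicate 2 left out (1 gene each time), while over all genes 0.761% fell without the first control and 0.516% without the second. Leaving out cKO replicate 1 gave 5 falls, with 6.13% of all genes. Leaving out cKO replicate 2 gave 6 falls and 1 rise (Nova1, log2 change 0.22, limma adjusted p 0.024), with 13.5% of all genes lower and 10.7% higher.

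**Figure D1:**
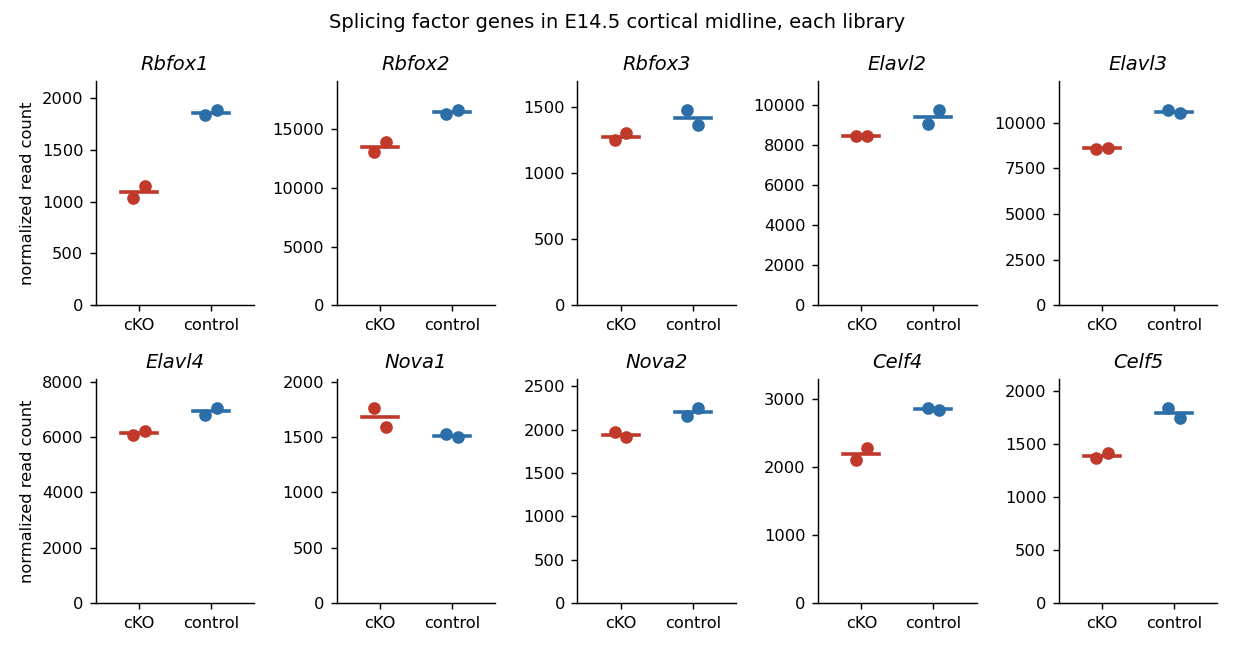
Normalized read counts (vertical axes, from 0) of the 10 splicing factor genes in each library, with cKO at the left and control at the right of each panel; points are libraries and bars are the means of 2. The cKO points lie below the control points in every panel except that of Nova1.

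Marker genes of cell types moved in both directions: neuronal markers mostly fell, as the splicing factors did, whereas called radial glia markers mostly rose. Of 20 pan-neuronal markers 17 fell, and their summed normalized counts were 204932 and 225230 in the cKO libraries against 284257 and 284448 in the control libraries (median log2 change -0.41). Of 16 radial glia markers, genes of the neural stem cells, 10 rose and 1 fell, with sums of 157624 and 154513 in the cKO and 141182 and 141950 in the controls. Of 12 tested interneuron markers 6 fell. The sums of all 13 in the table, with the untested Dlx6, were 2940 and 3319 in the cKO and 4439 and 4937 in the controls. Of 9 intermediate progenitor markers 4 rose and 1 fell (sums of 40491 and 40273 in the cKO, 36998 and 36834 in the controls). Of 16 hem and choroid markers 5 rose (10288 and 9978 in the cKO, 8447 and 7794 in the controls). Of 8 Cajal-Retzius markers 1 fell (43762 and 48612 in the cKO, 52983 and 51604 in the controls). Most of these sums was Reln, with 38055 and 42718 in the cKO and 47305 and 46009 in the controls. Reln did not pass (limma adjusted p 0.061). The median log2 change of the 8 was 0.035, and 3 of them had a change below 0. Of 17 markers of blood, vessel, meninges and microglia in the table, 2 rose and 1 fell, and their sum was 14404 in cKO replicate 1, against 8034 in cKO replicate 2 and 8319 and 8163 in the controls; 4 globin genes of this list were not analysed here. The excess in cKO replicate 1 lay mostly in Col1a1, Col1a2 and Col3a1. These had 2442, 2096 and 2842 normalized counts there, against 611, 378 and 282 in cKO replicate 2. Kdr, Pecam1 and Csf1r had 1494, 580 and 487 in cKO replicate 1 and 1459, 558 and 456 in cKO replicate 2. No marker in the table was at 0 in all libraries. The part of cell composition in the falls of the splicing factors was not tested.

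The promoters of these genes were read for the RE1 element through which Rest brings CoREST complexes to neuronal genes. RefSeq windows of 250 bases before a start (GRCm38.p6) were matched by symbol for 8 of the 10 genes, with 21 windows in all, some of which overlap. Rbfox2 and Celf4, each named for a promoter peak, had no window, so the motif counts do not cover them. Shown 5′ to 3′ on the strand of the gene are both Rbfox1 starts, since Rbfox1 fell the most, the Elavl2 start nearest to the promoter peak among those with a window, and the only Elavl3 start with a window. The Elavl2 and Elavl3 windows reach into the outer ends of the RefSeq gene spans, which end at 91400108 and 22052146. Capitals mark, on either strand, the motifs that the next paragraph spells out.
Rbfox1, first start, chr16:5884543-5884792, plus strand: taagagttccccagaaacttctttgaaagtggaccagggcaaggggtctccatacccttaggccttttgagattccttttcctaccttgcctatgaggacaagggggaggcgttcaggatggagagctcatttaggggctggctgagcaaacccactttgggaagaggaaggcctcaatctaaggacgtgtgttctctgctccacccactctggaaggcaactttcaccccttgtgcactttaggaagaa
Rbfox1, second start, chr16:7069585-7069834, plus strand: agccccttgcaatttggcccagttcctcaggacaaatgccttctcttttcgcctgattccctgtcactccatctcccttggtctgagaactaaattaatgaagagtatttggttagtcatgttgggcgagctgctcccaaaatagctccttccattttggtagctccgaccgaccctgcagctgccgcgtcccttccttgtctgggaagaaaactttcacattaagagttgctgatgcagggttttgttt
Elavl2, chr4:91399985-91400234, minus strand: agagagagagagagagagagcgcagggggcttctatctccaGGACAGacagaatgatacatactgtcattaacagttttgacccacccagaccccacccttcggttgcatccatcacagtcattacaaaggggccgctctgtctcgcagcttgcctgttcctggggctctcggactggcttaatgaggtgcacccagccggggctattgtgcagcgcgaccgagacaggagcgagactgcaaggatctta
Elavl3, chr9:22052024-22052273, minus strand: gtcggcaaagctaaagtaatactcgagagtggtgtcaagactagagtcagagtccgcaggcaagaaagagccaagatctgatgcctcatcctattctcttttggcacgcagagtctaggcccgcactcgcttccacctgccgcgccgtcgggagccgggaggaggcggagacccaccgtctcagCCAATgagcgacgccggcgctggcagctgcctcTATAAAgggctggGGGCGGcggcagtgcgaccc

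Motifs were searched on both strands, and the only overlapping matches in these windows were those of GGGCGG in 1 Celf5 window. The left part of RE1, TTCAGCACC, was in 0 of the 21 windows and in 0.301% of 32851 windows of all genes. The right part, GGACAG, was in 2 windows, 1 of Elavl2 and 1 of Celf5, against 18.7% of all windows. In the Elavl2 window it begins 209 bases before the start. The Elavl3 window holds a TATA box, TATAAA, that begins 33 bases before the start, which 12.4% of all windows have on either strand, together with a CCAAT that begins at 66 bases and a GC box, GGGCGG, that begins at 20 bases before it. The GC box was in 10 of the 21 windows, from Elavl2, Elavl3, Nova2 and Celf5, and in 32.7% of all windows. CCAAT was also in 10 of the 21, from Rbfox3, Elavl2, Elavl3 and Elavl4, and in 33.8% of all windows. Both Rbfox1 windows held none of the 5 motifs. These matches describe 250 bases of sequence and say nothing of binding.

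Among the Rbfox genes, Rbfox1 fell the most. Rbfox1, on mouse chromosome 16 (GRCm38, 5884793 to 7412480), had 1038 and 1149 normalized counts in the cKO libraries, against 1835 and 1882 in the control libraries. The means were 1093 ± 78.8 in the cKO and 1859 ± 33.1 in the controls (SD, n = 2 each), a ratio of 0.588. The groups did not overlap, and the log2 change was -0.77 (SE 0.065, limma adjusted p 0.0027). Only 1.54% of tested genes had a lower log2 change. Across all the alternative settings that were run, the log2 change of Rbfox1 lay between -0.84 and -0.32 and stayed past the threshold (adjusted p from 1.51e-12 to 0.0416).

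Rbfox2, which is expressed in progenitors as well as in neurons, had 13113 and 13933 normalized counts in the cKO libraries and 16324 and 16635 in the control libraries. This was a smaller change, with a ratio of 0.820 (log2 -0.29, SE 0.048, limma adjusted p 0.00907). Rbfox3, a marker of maturing neurons, had 1253 and 1304 normalized counts in the cKO and 1477 and 1363 in the controls. Although its groups did not overlap, the nearest cKO and control libraries were close to each other, and the log2 change of -0.15 (SE 0.063) did not pass (limma adjusted p 0.151); without control replicate 1 it was -0.093.

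The ratio of Rbfox1 to its paralogs was therefore lower in both cKO libraries. The log2 ratio of Rbfox1 to Rbfox2 counts was -3.66 and -3.60 in the cKO libraries and -3.15 and -3.14 in the control libraries, a difference of -0.48. The log2 ratio of Rbfox1 to Rbfox3 counts was -0.27 and -0.18 in the cKO, against 0.31 and 0.47 in the controls, a difference of -0.62. These are ratios of counts that are not scaled by transcript length, so they compare libraries and not the levels of the genes. With 2 libraries against 2, the exact two-sided permutation test gave p = 0.333 for each, the smallest it can give, and 0.444 after adjustment over the 8 paralog ratios computed. The differences were thus larger than the spread between replicates but could not reach a threshold of 0.05 in this test.

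Of the neuronal Elavl genes, which newborn neurons switch on early, Elavl3 changed the most. Elavl3 (chromosome 9, 22015005 to 22052146) had 8580 and 8616 normalized counts in the cKO libraries and 10674 and 10507 in the control libraries. The means were 8598 ± 24.9 in the cKO and 10591 ± 119 in the controls (SD, n = 2 each), with a log2 change of -0.30 (SE 0.042, limma adjusted p 0.00634). Replicates of each genotype lay close together and the groups were well apart. Elavl4 had 6092 and 6234 normalized counts in the cKO and 6816 and 7056 in the controls (log2 -0.17, SE 0.044, limma adjusted p 0.0379). The call of Elavl4 was near the threshold: its adjusted p was 0.065 by edgeR, 0.0658 after quantile normalization and 0.0601 in the authors' deposited table. Elavl2, the family member also expressed outside the nervous system in gonads, had 8447 and 8447 normalized counts in the cKO and 9046 and 9738 in the controls. Its log2 change of -0.15 (SE 0.049) did not pass (limma adjusted p 0.0749), and it was -0.099 without control replicate 2. The log2 ratio of Elavl3 to Elavl2 counts was 0.023 and 0.028 in the cKO libraries and 0.24 and 0.11 in the control libraries, a difference of -0.15. That of Elavl3 to Elavl4 was 0.49 and 0.47 in the cKO libraries and 0.65 and 0.57 in the control libraries (exact permutation p = 0.333 for each, the smallest possible). That of Elavl4 to Elavl2 overlapped between the groups, at -0.47 and -0.44 in the cKO and -0.41 and -0.46 in the controls.

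The Nova paralogs had changes of opposite sign, and neither passed. Nova1 had 1763 and 1591 normalized counts in the cKO libraries and 1525 and 1496 in the control libraries. It was the only one of the 10 genes with both cKO libraries above both controls (log2 change 0.15, SE 0.064, limma adjusted p 0.159), and without cKO replicate 1 the change was 0.075. Nova2, which in mouse cortex acts in axon guidance and neuronal migration, had 1969 and 1914 normalized counts in the cKO and 2155 and 2251 in the controls. Its log2 change was -0.18 (SE 0.052, limma adjusted p 0.0517), and it passed with a minimum mean of 50 normalized counts (adjusted p 0.0478). Nova2 did not pass by edgeR (adjusted p 0.066), by DESeq2 (adjusted p 0.192) or in the authors' deposited table (adjusted p 0.184). The log2 ratio of Nova2 to Nova1 counts was 0.16 and 0.27 in the cKO libraries, against 0.50 and 0.59 in the control libraries. The difference of -0.33 had an exact permutation p of 0.333 (adjusted 0.444).

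Celf4 and Celf5 fell together. Celf4 (chromosome 18, 25477620 to 25754520) had 2099 and 2283 normalized counts in the cKO libraries and 2864 and 2840 in the control libraries, with means of 2191 ± 130.5 in the cKO and 2852 ± 17.2 in the controls (SD, n = 2 each). This was a log2 change of -0.38 (SE 0.055, limma adjusted p 0.00689). Celf5 had 1364 and 1413 normalized counts in the cKO and 1837 and 1744 in the controls (log2 -0.37, SE 0.057, limma adjusted p 0.00771). In both genes the groups were separated by more than the spread within either. The log2 ratio of Celf4 to Celf5 counts was 0.62 and 0.69 in the cKO libraries and 0.64 and 0.70 in the control libraries, so the ratio overlapped between genotypes (difference -0.015, exact permutation p = 0.667).

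The remaining paralogs and other sequence-specific regulators moved in both directions. Among 25 tested genes there were 5 that fell, 4 that rose and 16 that missed the threshold, and their median log2 change was -0.043. Over all tested genes 8.29% fell and 6.16% rose. After quantile normalization 2 fell and 5 rose, against 6.25% and 5.99% of all genes, and centred on pan-neuronal markers 22 were higher and 0 lower, where 74.8% of all genes were higher. The genes that fell were Khdrbs2 (log2 -0.49, SE 0.070, limma adjusted p 0.00665), Khdrbs1 and Khdrbs3 (log2 -0.21 and -0.23), whose SLM and Sam68 proteins regulate neurexin splicing, and the Celf paralogs Celf3 and Celf6 (log2 -0.23 and -0.72). The size of the Celf6 change rested on cKO replicate 1: it was -0.41 without that library, and Celf6 did not pass by edgeR (adjusted p 0.0602) or after quantile normalization (adjusted p 0.0654). Those that rose were Mbnl3 (log2 0.57, SE 0.11, limma adjusted p 0.015), a muscleblind protein, Rbm24 (log2 0.40, SE 0.072, limma adjusted p 0.0115), known as a splicing regulator of muscle, Msi1, an RNA-binding protein of neural progenitors (log2 0.27), and Ptbp1 (log2 0.21, SE 0.049, limma adjusted p 0.0274). Without cKO replicate 1, the log2 changes of Mbnl3, Rbm24, Msi1 and Ptbp1 were 0.45, 0.42, 0.19 and 0.16. After quantile normalization, Khdrbs3 and Celf3 did not pass either (limma adjusted p 0.0559 and 0.0839). Ptbp1 holds neuronal exons silent in progenitors and is replaced by Ptbp2 in neurons. It had 6896 and 6433 normalized counts in the cKO libraries and 5732 and 5808 in the control libraries, while Ptbp2 had 15282 and 15378 in the cKO and 14884 and 15391 in the controls (log2 change 0.018, limma adjusted p 0.815). Srrm4, which drives neuronal microexons and the neuronal splice form of Rest, had a log2 change of -0.13 that did not pass (limma adjusted p 0.234). The ubiquitous paralogs Elavl1 and Celf1 had log2 changes of -0.013 and 0.055, and neither passed. With control replicate 1 left out 0 of these genes passed in limma, where 7 were lower and 4 higher at an unadjusted p under 0.05 (11.3% and 9.0% of all genes). With control replicate 2 left out it was again 0, with 6 lower and 5 higher (10.9% and 9.47% of all genes).

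**Figure D2:**
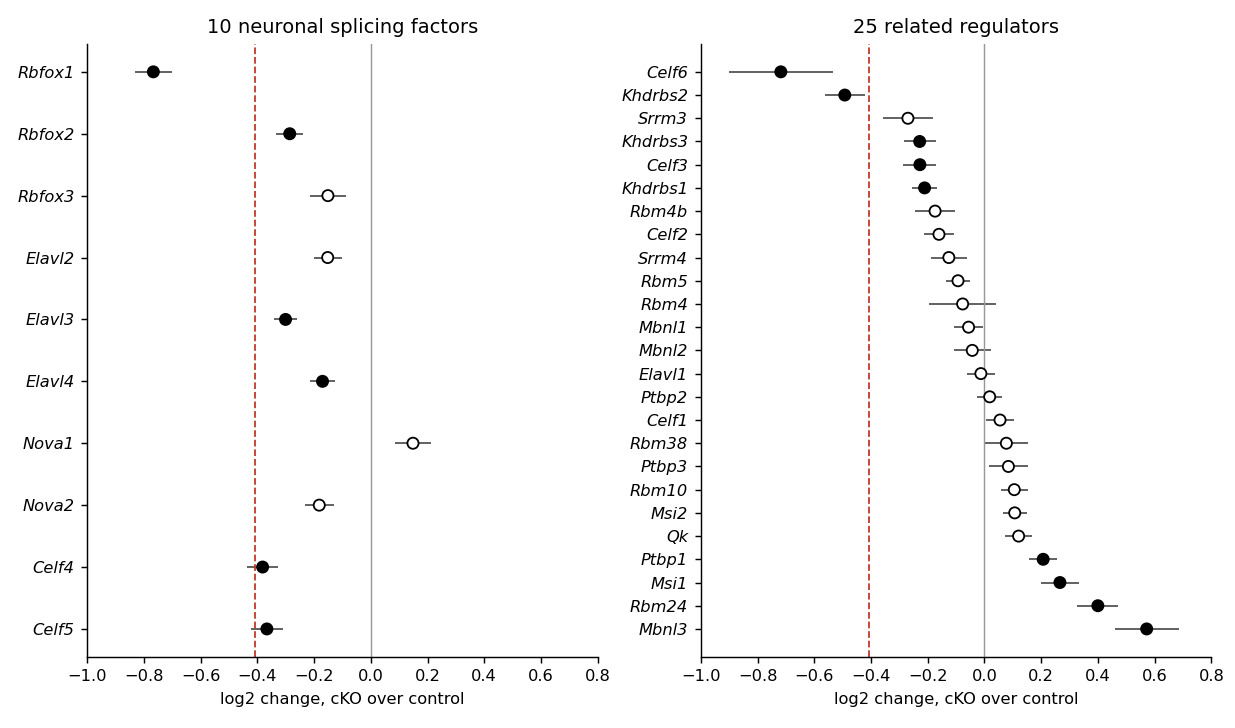
Log2 change, cKO over control, of the 10 splicing factor genes (left) and 25 related regulators (right, in order of change). Bars are standard errors from limma, filled points passed an adjusted p of 0.05, the grey line marks no change, and the dashed line the median of 20 pan-neuronal markers (-0.41). Rbfox1 lies left of the dashed line and the other 9 splicing factors right of it, with Celf4 and Celf5 close to it.

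Splicing factors that most cells express changed little. Of 33 SR and hnRNP genes and their partners, 32 did not pass, and Hnrnpf rose (log2 0.24, SE 0.058, limma adjusted p 0.0293). Over all tested genes 8.29% fell and 6.16% rose. The median log2 change of this list was 0.059, and its values ran from -0.085 to 0.24, whereas centred on pan-neuronal markers all 33 were higher, as were 74.8% of all genes. None of these genes was lower in the cKO even at an unadjusted p under 0.05 (0 genes), and 2 were higher. At that threshold 17.1% of all tested genes were lower and 30.1% passed in either direction. By edgeR 0 rose and 0 fell, and by DESeq2 1 rose. Of all 14324 tested genes, 815 rose and 927 fell by edgeR, and 750 rose and 827 fell by DESeq2. Hnrnpf did not pass by edgeR (adjusted p 0.0649) or DESeq2 (adjusted p 0.0734).

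Of 20 RNAs described in other work as targets of these families or of Ptbp proteins, 9 fell and 11 did not pass (median log2 change -0.18). Over all tested genes 8.29% fell. At an unadjusted p under 0.05, 13 targets were lower and 3 higher, against 17.1% of all genes lower and 30.1% in either direction; edgeR called 9 falls and 0 rises, and DESeq2 9 and 1. The Nova target Glra2, a glycine receptor subunit, had a log2 change of -0.60 (SE 0.070, limma adjusted p 0.00429). Gap43, a growth cone protein whose RNA is stabilised by Elavl4, fell by 0.55 on the log2 scale, and Ank3, an ankyrin of the axon initial segment spliced under Elavl3, by 0.32. Snap25 and Grin1 fell by 0.76 and 0.95, and Dlg4, Cacna1c and Nin by 0.32, 0.27 and 0.32. Other targets had values that did not pass, among them Dab1 (log2 -0.17, limma adjusted p 0.057), Dcc (log2 -0.023) and Numb (log2 0.22, limma adjusted p 0.0647). Gap43 and Snap25 are also in the pan-neuronal list. Centred on pan-neuronal markers, 2 targets were lower and 11 higher, where 0.935% and 74.8% of all genes were. The number of targets called changed with the library left out, as did the number over all genes.

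Set against the pan-neuronal markers within each library, Rbfox1 and the other splicing factors went different ways. Each library was centred on the mean log2 value of the 20 pan-neuronal markers and the fit over all genes was repeated. On that scale the median of all genes shifted to 0.43, and 0.935% of genes were lower and 74.8% higher in the cKO at an adjusted p under 0.05, against 8.29% lower and 6.16% higher without centring. The centring adds the same amount to every gene, so a fall smaller than that amount changes sign. Rbfox1 was still lower (log2 change -0.32, limma adjusted p 0.00494). The markers themselves had log2 changes from -0.76 to -0.17 before centring, and Rbfox1 (-0.77) lay beside those that fell the most, Snap25 (-0.76) and Mapt (-0.75); Snap25 was also lower on the centred scale (-0.31, limma adjusted p 0.00529). Its log2 ratio to the pan-neuronal mean was -1.83 and -1.83 in the cKO libraries and -1.53 and -1.49 in the control libraries. Nova1 had ratios of -1.06 and -1.36 in the cKO and -1.80 and -1.82 in the controls, a rise of 0.60 (limma adjusted p 2.19e-05). Rbfox3, Elavl2, Elavl4 and Nova2 were also higher, by 0.30, 0.29, 0.28 and 0.26. Rbfox2, Elavl3, Celf4 and Celf5 had log2 changes of 0.16, 0.15, 0.065 and 0.080 that did not pass. The sign of the 8 splicing factors other than Rbfox1 and Nova1 thus changed with this scaling, and 4 of these 8 did not pass on it.

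**Figure D3:**
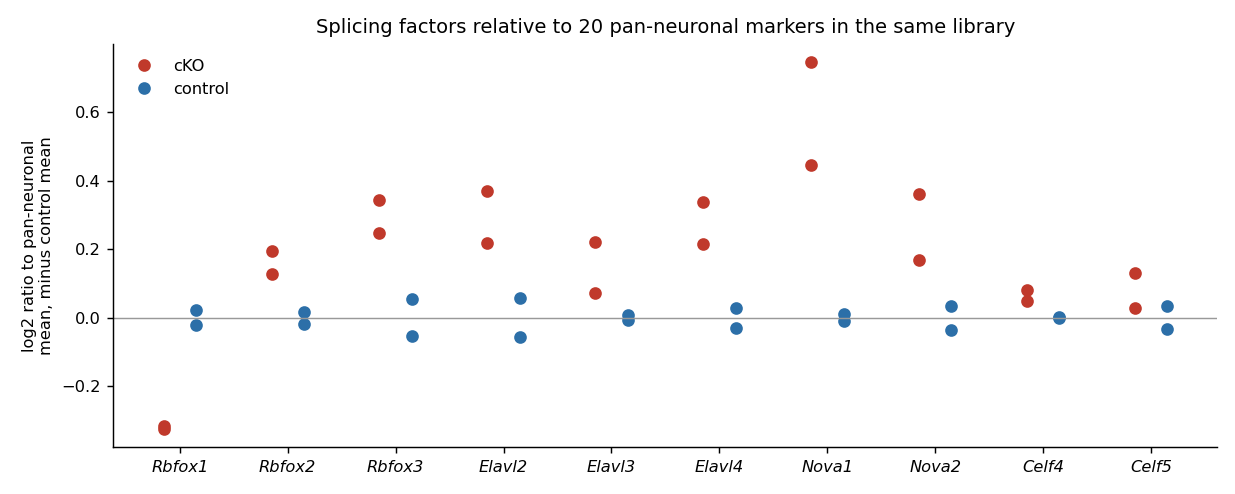
Log2 ratio of each splicing factor to the mean of 20 pan-neuronal markers in the same library, with the control mean of each gene set to 0 (vertical axis). Points are libraries, cKO left of control for each gene. Both cKO points of Rbfox1 lie below its control points, and those of Nova1 lie highest above theirs.

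The ChIP-seq table was read for Rcor2 peaks at these genes. The authors named 5 of the 10 genes for a peak, as they did 20.9% of all tested genes. They were Rbfox1 with 4 peaks, Rbfox2 and Celf4 with 3 each, Elavl3 with 2 and Elavl2 with 1. Of the genes named for any peak, 12.0% had 3 or more and 6.29% had 4 or more. Rbfox3, Elavl4, Nova1, Nova2 and Celf5 had none, also within 5000 bases of their RefSeq spans. These genes differ greatly in span, and inside the 10 spans 9 peak summits lay in 3.01 Mb, or 2.99 per Mb, against 3.32 per Mb over all protein-coding spans. Rbfox1, whose span is 1527.7 kb, had 2.62 summits per Mb, while Elavl3 with a span of 37.1 kb had 53.8 per Mb, from 2 summits.

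By the authors' classes, 8 of the 13 peaks lay in gene bodies, 3 at promoters and 2 were distal. Over all 6995 peaks, 2515 were in gene bodies, 1619 at promoters, 1219 distal and 1642 intergenic. A gene name was given to 5353 peaks, as many as the gene body, promoter and distal classes hold together. The 13 peaks were picked by gene name, so shares of all 6995 peaks would be too low a background for their classes. The enrichment over IgG that the authors deposited had a median of 3.83-fold at the 13 peaks and 3.996-fold over all peaks, and 5 of the 13 were above the median of the list. All 13 had both Rcor2 heights above both IgG heights, as did 98.9% of all peaks, and by the peak names this is the contrast they were called on. Against input, 2 of the 13 peaks had both Rcor2 heights above both input heights, compared with 40.3% of all peaks. Heights were used as deposited, and no scaling for depth is stated for them. With each library divided by its median height, it was again 2, and 29.8% of all peaks. The Rcor2 replicates differed in height, with medians over all peaks of 13 and 19, and without Rcor2 replicate 1 the count was 9 of 13, against 74.7% of all peaks.

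The 2 peaks above input were at Rbfox1 and Elavl2. The first Rbfox1 peak (chromosome 16, 6310894 to 6311115, in the gene body) had heights of 13 and 18 in the Rcor2 libraries, 5 and 3 in IgG and 7 and 6 in input. Its summit lay 426141 bases after the first RefSeq start of the gene. The other 3 Rbfox1 peaks had Rcor2 heights of 8 to 18 and input heights of 4 to 17, which overlapped. The nearest of them to a RefSeq start was 37288 bases downstream of the second start. The Elavl2 peak (chromosome 4, 91401336 to 91401656, promoter class) had heights of 13 and 23 in the Rcor2 libraries, 5 and 1 in IgG and 9 and 7 in input, with an enrichment of 4.83-fold over IgG. Its summit lay outside the RefSeq span, 1441 bases beyond its end and upstream of the Elavl2 promoter window printed above.

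At Elavl3 the order was the reverse. Its first peak (chromosome 9, 22021451 to 22021808, in the gene body) had the highest enrichment over IgG of the 13, 5.66-fold. Its heights were 17 and 20 in the Rcor2 libraries, 1 and 7 in IgG, and 32 and 33 in input. The second Elavl3 peak had heights of 11 and 20 in the Rcor2 libraries and 29 and 22 in input. Their summits lay 30308 and 29872 bases downstream of the RefSeq start, far from the promoter window printed above. Only 2.75% and 4.36% of all peaks had a lower ratio of Rcor2 to input height.

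At Rbfox2, the promoter peak (chromosome 15, 77307306 to 77307461) had heights of 12 and 15 in the Rcor2 libraries and 21 and 12 in input. The summits of its 2 distal peaks lay 16216 and 28586 bases outside the RefSeq span. The nearer had heights of 6 and 20 in the Rcor2 libraries and 10 and 9 in input, and the farther 12 and 19 in the Rcor2 libraries and 16 and 16 in input. Of the Celf4 peaks, the one of promoter class lay 390 bases outside the span, with heights of 9 and 16 in the Rcor2 libraries, 2 and 0 in IgG and 16 and 16 in input. The first Celf4 peak had heights of 17 and 29 in the Rcor2 libraries and 22 and 19 in input, and the second had heights of 9 and 24 in the Rcor2 libraries and 11 and 13 in input. In none of these 6 peaks did the Rcor2 libraries lie clear of both input libraries.

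**Figure D4:**
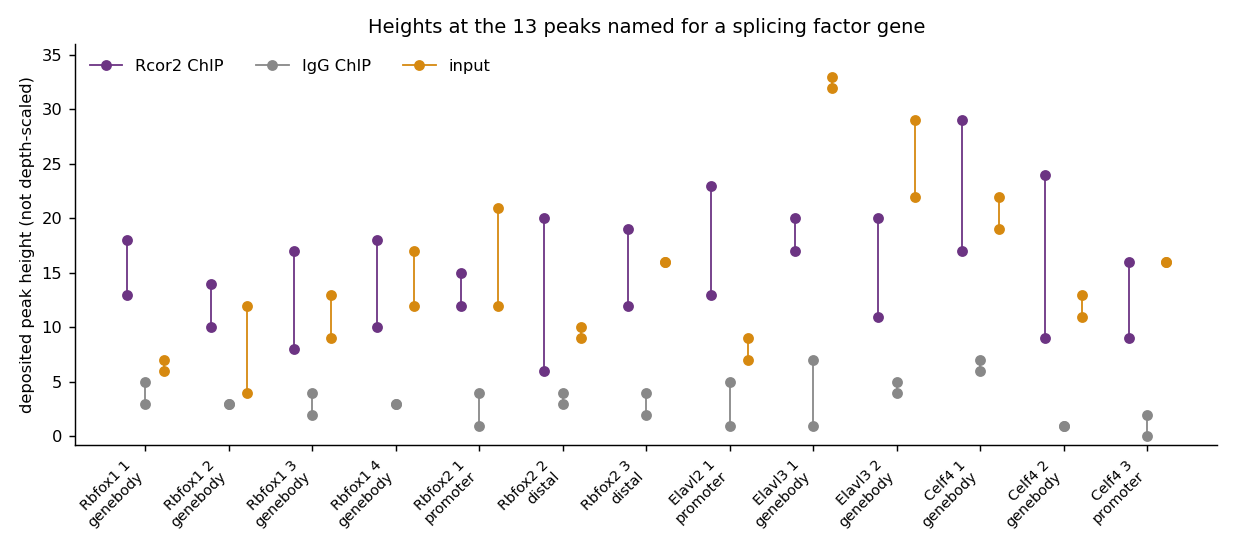
Deposited peak height (vertical axis, used as deposited) at the 13 peaks named for a splicing factor gene, in the 2 Rcor2 ChIP, 2 IgG ChIP and 2 input libraries of each peak, joined by a line. Rcor2 lies above IgG at every peak, but clear of input only at the first Rbfox1 peak and the Elavl2 peak, and below input at both Elavl3 peaks.

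Falls of RNA were seen in genes with and without a peak. Of the 5 splicing factors with a peak 4 fell (Rbfox1, Rbfox2, Elavl3 and Celf4), with a median log2 change of -0.30. Of the 5 without a peak 2 fell (Elavl4 and Celf5), with a median of -0.17. Over all tested genes, 300 of 2993 with a peak fell and 318 rose, with a median log2 change of 0.013. Of the 11331 tested genes without a peak, 888 (7.84%) fell and 564 rose, with a median of -0.017. Among all genes with a peak, rises were thus slightly more frequent than falls, unlike among the splicing factors. With 5 splicing factors on each side, no difference between those with and without a peak was tested.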

How the data were processed

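Per the file headers, the authors deposited normalized counts, a signal per gene, for 4 RNA libraries, with log2 fold changes, a test score and p-values of their own. Per the submitters' processing notes, HISAT2 2.1.0, Trim Galore and mm10 were used; the sources used here name no counter or annotation. All values (100%) were whole multiples of 1 step per library within 0.0001, so whole reads were recovered. Limma-trend (limma 3.58.1, R 4.3.3) was fitted to log2(normalized count + 1), two-sided, with no replicate block, over 14324 genes with a mean of at least 10; 2014 were left out. Residual degrees of freedom were 2 and prior 6.21. p-values were adjusted by Benjamini-Hochberg over all tested genes, and lists were described by counts and medians. EdgeR 4.0.16 and DESeq2 1.42.0 on whole reads, pseudocounts, filters, scalings, a replicate block and left-out libraries were alternatives. Scripts were tested on simulated data.

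Per the peak names, the authors called peaks on Rcor2 against IgG. Each has a deposited pileup signal, height signal per library, fold enrichment ratio and values that by place are −log10 of p and q, with length and position. A ratio of heights had 0.5 added to both sides. Peaks naming several genes count for each. Coordinates are 1-based, and spans and promoter sequences are those of RefSeq on GRCm38.p6, to which mm10 corresponds. Figures used Python 3.11.15 and matplotlib 3.10.9.

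The members and lists were chosen with earlier results of these data known. Named were the 10 genes, Rcor2, up to 4 called genes per list of regulators and targets by smallest adjusted p (marker lists are given as counts), and every peak of the 10 genes; Khdrbs3, Celf3, Celf6, Msi1, Ptbp1, Ptbp2, Srrm4, Elavl1, Celf1, Mapt, Gap43, Dlg4, Cacna1c, Nin, Dab1, Dcc and Numb were added after their values were seen. The authors' deposited test was added as an alternative after seeing the data.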

Additional observations from a re-analysis of the deposited data

How the results depend on the processing

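The counts of calls rested on both controls. With 1 library left out, the number of genes called ran from 127 (without control replicate 2) to 3463 (without cKO replicate 2), against 2070, and was 172 without control replicate 1; of the 10 splicing factors it ran from 1 to 7, of the related regulators from 0 to 10, of the general splicing factors from 0 to 5 and of the target RNAs from 1 to 15. Without the controls in turn, limma adjusted p-values of Rbfox2, Elavl3, Celf4 and Celf5 lay between 0.0608 and 0.0829, and that of Elavl4 at 0.145 and 0.254. The cause was not tested.

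Centring on pan-neuronal markers gave 10845 called genes, 22 related regulators and 33 general splicing factors. It reversed the log2 change to 0.16 for Rbfox2, 0.30 for Rbfox3, 0.29 for Elavl2, 0.15 for Elavl3, 0.28 for Elavl4, 0.26 for Nova2, 0.065 for Celf4, 0.080 for Celf5 and 0.25 for Rcor2. It did so too for Khdrbs1 (0.24), Khdrbs3 (0.22), Celf3 (0.22), Ank3 (0.13), Dlg4 (0.13), Cacna1c (0.17) and Nin (0.13). By construction this scaling sets the mean of those markers to no change.

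Of the general splicing factors 2 were called after quantile normalization and 0 by edgeR. With replicate number as a replicate block, 6 of the 10 genes fell and 2076 genes were called, and no call of a splicing factor changed; deviations of same-numbered libraries had a correlation of 0.242, and the labels do not say that numbers pair animals. Other pseudocounts, no minimum and TMM changed no call of the 10 genes. At peaks, 13 of 13 lay above IgG in place of input, and with 1 Rcor2 or input library left out 2 to 9 lay above input. The 5 genes with a peak stayed at 5 with a −log10 q of at least 5. With 2 libraries a group, small changes could not be told from the spread.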
